A study of Pan troglodytes with 217 samples.

Results

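The genes described here form the cholesterol synthesis and uptake module, a list of 28 gene symbols that were matched by symbol to the Ensembl chimpanzee identifiers of the count matrix. All 28 were found among 33729 identifiers. The list holds 19 enzymes of the pathway (called synthesis enzymes here, with GGPS1 of a side branch among them), 5 regulators of the pathway and 4 proteins that release or carry cholesterol inside the cell. The genes were followed across single cells of day 4 chimpanzee blastoids, which are structures resembling the blastocyst that form when naive pluripotent stem cells (PSCs) cluster and cavitate in culture. Each cell was given its own SMART-seq2 library, a full-length cDNA method whose reads carry no molecular identifiers.

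The labels describe all sequenced cells alike and name no untreated group. Naive iPSCs were kept in AE6, a medium of N2B27 with the MEK inhibitor PD032590, XAV939, Gö6983, human LIF, activin A, IL6 and EPZ-6438, an inhibitor of the histone methyltransferase EZH2. According to the study's methods, blastoids were then formed in PALY (PD, A83, LPA and the ROCK inhibitor Y-27632), moved to medium without PD and finished in N2B27 alone. Most of the mural trophectoderm was cut away with needles, and it was dissociated apart from the inner cell masses, which kept their polar trophectoderm. No label ties a cell to its blastoid, stem cell line, dissected piece or plate. The cells therefore count as 1 sample without replicates, no test was possible, and the spread given below is that between cells.

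Cells with at least 8000 detected genes were kept, which left out 24 cells. The others had 1679888 to 25630392 reads each and a median of 3960857. Clustering placed 50 of them in an epiblast-like class, 32 in a hypoblast-like class and the rest in trophectoderm-like clusters. These last cells were divided by CCR7, a chemokine receptor gene, into 51 early cells below 10 CPM (reads of a gene scaled to 1000000 reads on all genes) and 60 late cells at or above it. CCR7 was at 0 in 44 of the early cells and at 20 CPM or more in 55 of the late cells, and 7 cells lay between 5 and 20 CPM. When the members and 40 other sterol genes were left out of the clustering, all kept cells fell into the same class again. The division into epiblast-like, hypoblast-like and trophectoderm-like cells was thus the same without these genes. Other genes that vary with them stayed in, and the early and late classes follow from the CCR7 threshold, which this check leaves unchanged.

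The class names were checked against marker genes. The class level of a gene is its reads summed over the cells of the class, scaled to 1000000 reads on all genes of the same cells. POU5F1 had 1341 CPM in epiblast-like cells against 66.7 to 447 CPM in the others. PDGFRA had 423 CPM in hypoblast-like cells and at most 5.72 CPM elsewhere. The 12 hypoblast markers summed to 2110 CPM in hypoblast-like cells, 113.8 in epiblast-like, 406 in early and 271.7 in late trophectoderm-like cells. Among them, LAMA1 ran the other way, with 166.7 CPM in hypoblast-like, 397 in early and 257.9 in late cells. APOA1 reached only 0.902 CPM in hypoblast-like cells, where 11 of the 12 were at 10 CPM or more. GATA3 had 655 and 720 CPM in early and late trophectoderm-like cells against 58.5 to 70.4 CPM in the inner classes. The inner classes were not free of other markers: 3 or more of 12 trophectoderm markers reached 10 CPM in 46 of the 50 cells called epiblast-like and in 31 of the 32 called hypoblast-like, with KRT18 at 853 and 1007 CPM. At least 3 of 11 measured epiblast markers reached that level in 20 of 32 hypoblast-like cells. CDX2, a defining trophectoderm gene, was at 25.1 CPM in early and 4.45 CPM in late trophectoderm-like cells. Among syncytiotrophoblast genes, CGA reached 759 CPM in late cells and 3.84 CPM in early cells.

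Cholesterol is made from acetyl-CoA in the cytosol and endoplasmic reticulum. The mevalonate arm makes isoprene units, the next enzymes join them into squalene, and a last set trims and reduces lanosterol to cholesterol. When membrane sterol is scarce, SCAP escorts the SREBP transcription factors from the endoplasmic reticulum to the Golgi, where they are cleaved and freed to switch on the pathway's genes, and INSIG proteins hold SCAP back when sterol is plentiful. Cells also take up cholesterol in lipoproteins and release it in lysosomes. Trophoblast, the descendant of trophectoderm, is known for taking cholesterol as the starting material of progesterone.

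The 19 synthesis enzymes together were low in epiblast-like and late trophectoderm-like cells and highest in early trophectoderm-like cells. In epiblast-like cells their summed level was 1439 CPM (95% Poisson interval 1434 to 1444), and single cells ran from 719 through a median of 1280 to 3956 CPM. Hypoblast-like cells had 2351 CPM (2342 to 2359), with single cells at 768, 1937 and 5838 CPM for the lowest, median and highest. Early trophectoderm-like cells had 3317 CPM (3309 to 3324), with the lowest cell at 680, the median at 2970 and the highest at 9024 CPM. Late trophectoderm-like cells were back at 1586 CPM (1581 to 1590), from 453 through 1280 to 5479 CPM. The ranges of the 4 classes overlapped, and the early cells were the most spread out, with quartiles at 1577 and 4869 CPM. These Poisson intervals cover the counting of reads only, and copies of a cDNA molecule are counted more than once. The binomial intervals given further on for shares of cells treat the cells of 1 experiment as independent draws and cover nothing beyond that draw.

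The summed level was 1.63 times as high in hypoblast-like and 2.30 times as high in early trophectoderm-like as in epiblast-like cells. The latter ratio was 3.59 without the cells that had 3 or more markers of a second class at 10 CPM, a setting that left 4 epiblast-like and 0 hypoblast-like cells. The epiblast-like median was exceeded by 29 of 32 hypoblast-like cells (90.6%, exact binomial interval 74.98% to 98.02%) and by 42 of 51 early trophectoderm-like cells (82.4%, 69.1% to 91.6%). In 17 early cells the sum exceeded that of every epiblast-like cell. Late cells had 0.478 times the level of early cells, with 5 of 60 above the early median (8.33%, 2.76% to 18.4%). Late trophectoderm-like and epiblast-like cells had nearly the same sum, at a ratio of 1.10 that became 0.874 when the trophectoderm-like cells were divided by cluster, and 30 of 60 late cells lay above the epiblast-like median. ACAT2, MSMO1 and FDFT1 supplied 50.1% to 55.6% of the sum, so the sum mostly follows these 3 genes, and the members are therefore also given singly.

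**Figure D1:**
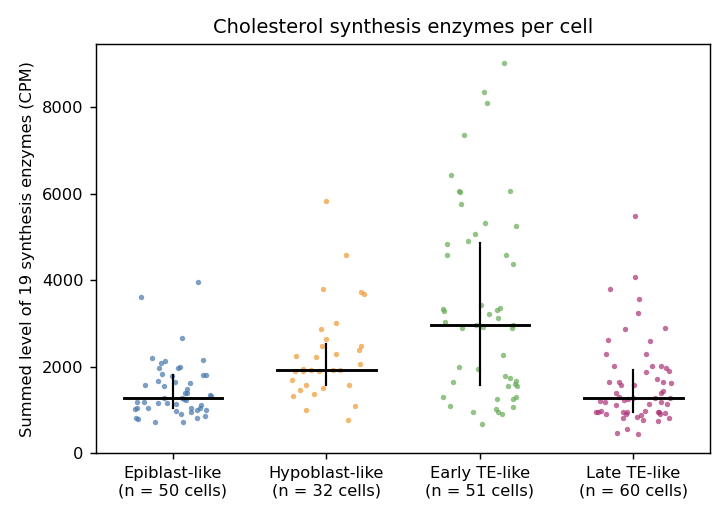
Summed level of the 19 synthesis enzymes in each cell (CPM, linear axis) by class, with 1 point per cell, the median as a horizontal bar and the quartiles as a vertical line. Early trophectoderm-like cells reach 9024 CPM with a median of 2970, while the epiblast-like and late trophectoderm-like medians are both 1280 CPM.

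Depth and RNA quality measures were set beside these levels. Median totals were 3951119, 3978822.5, 3682620 and 4425386 reads in epiblast-like, hypoblast-like, early and late trophectoderm-like cells, and median detected genes were 11736.5, 10993.5, 10776 and 11511. The early cells thus had the fewest detected genes, and their median share of mitochondrial reads was the highest at 2.61%, against 1.86% to 2.19% in the other classes, and the part of these differences in the enzyme levels was not tested. With every cell thinned to 2532312 reads, the early trophectoderm-like sum was 2.29 times the epiblast-like and the late sum 0.476 times the early. Within classes, the Spearman correlation of the sum with total reads lay between -0.16 and 0.17. That with detected genes was 0.47 in the 32 hypoblast-like cells and between -0.13 and 0.13 in the other classes.

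For the single members, a fold is the ratio of class levels after adding 1 CPM to each, and genes with a mean of the 4 class levels under 5 CPM were not counted. This left 24 of the 28 members and 9233 genes in all. LSS, CYP51A1, TM7SF2 and NSDHL fell below it.

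Between hypoblast-like and epiblast-like cells, 5 of 24 members were at least 2-fold higher, against 4.95% of all genes, and 2 were at least 2-fold lower, against 9.03%. The higher members were HMGCS1, SQLE, SC5D, DHCR7 and SCAP, and the lower were STARD4 and LIPA. The median member stood 0.54 higher on the log2 scale, while the median of all genes was -0.11. Early trophectoderm-like over epiblast-like cells gave 8 members at least 2-fold higher, against 8.36% of all genes, and 1 lower, against 16.3%. These were ACAT2, HMGCS1, FDFT1, SQLE, MSMO1, SC5D, DHCR7 and INSIG1, with LIPA as the lower member, and the median log2 fold was 0.91 beside -0.12 for all genes. With size factors by median of ratios in place of totals, the median of all genes moved by 0.17 and 0.20 in these 2 comparisons, and the counts became 7 higher and 0 lower for hypoblast-like and 13 higher and 1 lower for early trophectoderm-like cells.

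Hypoblast-like cells were then set against early trophectoderm-like cells. LIPA alone was at least 2-fold higher in hypoblast-like cells, against 11.3% of all genes, and STARD4 alone at least 2-fold lower, against 7.73%. The median log2 fold was nevertheless -0.46 beside 0.03 for all genes, with 18 of 24 members lower in hypoblast-like cells, against 47.6% of all genes. Without the deepest cell of each class, which in early trophectoderm-like cells held 25630392 reads, 4 members in place of 1 were at least 2-fold lower. Without the cells that had 6 or more markers of a second class at 10 CPM, 2 members were higher and 6 lower. From early to late trophectoderm-like cells, 0 members were at least 2-fold higher, against 5.38% of all genes, and 7 were at least 2-fold lower, against 3.51%. These 7 were ACAT2, HMGCS1, FDFT1, SQLE, MSMO1, DHCR7 and INSIG1, and the median log2 fold was -0.72 beside 0.05 for all genes. The 4 comparisons share their epiblast-like, hypoblast-like or early cells and are not independent of each other.

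Early trophectoderm-like cells had the highest of the 4 class levels for 17 of 24 members, as against 19.4% of all genes. Epiblast-like cells had the lowest level for 13 members, compared with 23.3% of all genes. Late trophectoderm-like cells had the highest level for 0 members, compared with 26.5% of all genes. The 7 members that were not highest in early cells were PMVK, GGPS1, HSD17B7 and LIPA, highest in epiblast-like cells, and IDI1, SREBF1 and SCAP, highest in hypoblast-like cells. For IDI1, SREBF1, HSD17B7, INSIG2 and STARD4 the Poisson intervals of the highest class and the next overlapped. The spread between cells was far wider than these intervals. For 19 of 24 members the median cell of the next class lay within the quartiles of the highest class, so the order of these neighbours did not exceed the spread between cells. DHCR7, for example, was highest in early trophectoderm-like cells, but 14 of 32 hypoblast-like cells exceeded the early median. The members for which it lay outside were MVK, GGPS1, FDPS, SCAP and NPC2.

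**Figure D2:**
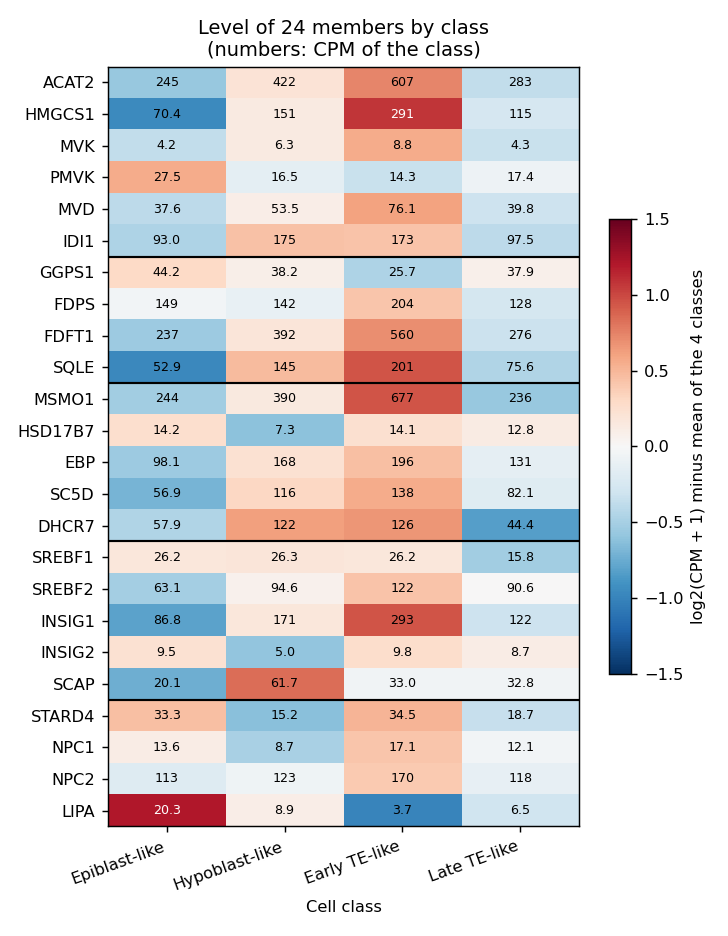
Class level of the 24 members that passed the filter on low values, in rows grouped by role, with the level in CPM printed in each field and the color giving log2(CPM + 1) minus the mean of the 4 classes. The early trophectoderm-like column is the highest for 17 members, and PMVK, GGPS1 and LIPA run the other way.

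In the mevalonate arm, ACAT2, which joins acetyl-CoA units, had 245.4 CPM in epiblast-like, 422 in hypoblast-like, 607 in early and 283 in late trophectoderm-like cells. HMGCS1, which adds the next acetyl-CoA, had the largest folds of the arm. Its epiblast-like level was 70.4 CPM, with single cells from 1.23 through a median of 47.2 to 373 CPM, and its early trophectoderm-like level was 291 CPM, with cells from 9.41 through 252.2 to 901 CPM. Hypoblast-like cells had 150.6 CPM, from 0.146 through 129.1 to 556 CPM in single cells, and late cells 114.7 CPM, from 1.81 through 79.8 to 670 CPM. Early cells were 4.08-fold above epiblast-like cells, and 47 of 51 exceeded the epiblast-like median. Late cells were 2.52-fold below early cells, with 53 of 60 under the early median.

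The middle steps of the arm were less uniform. MVK and PMVK add phosphates to mevalonate, and MVD removes its carboxyl group to give the first isoprene unit. MVK was low throughout, at 4.15, 6.30, 8.79 and 4.26 CPM in epiblast-like, hypoblast-like, early and late cells. MVD followed HMGCS1 in order, with 37.6, 53.5, 76.1 and 39.8 CPM, and missed the 2-fold count in early over epiblast-like cells only narrowly, at a log2 fold of 0.997. PMVK ran the opposite way. It had 27.5 CPM in epiblast-like cells, with single cells from 0 through 21.6 to 103.8 CPM, against 16.5, 14.3 and 17.4 CPM in hypoblast-like, early and late cells. The PMVK medians of single cells in those 3 classes were 8.95, 11.5 and 15.8 CPM, and 42 of 51 early cells lay below the epiblast-like median. IDI1, which interconverts the isoprene units, had 92.98 CPM in epiblast-like and 97.5 CPM in late cells, against 175.3 CPM in hypoblast-like and 173.01 CPM in early cells.

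FDPS and GGPS1 build prenyl chains, FDFT1 makes squalene as the first step committed to sterols, and SQLE oxidizes it in a rate-limiting step. FDPS stayed below 2-fold in each comparison, with 148.7, 142.4, 204.3 and 127.8 CPM in epiblast-like, hypoblast-like, early and late cells. Still, 52 of 60 late and 26 of 32 hypoblast-like cells lay below its early median. FDFT1 had 237.4, 392, 560.3 and 276 CPM in the same order, and 43 of 51 early cells were above the epiblast-like median. SQLE had 52.9 CPM in epiblast-like cells, from 0 through 44.3 to 163.2 CPM in single cells. It had 144.7 CPM in hypoblast-like cells, from 25.3 through 129.8 to 352 CPM. Early cells had 200.7 CPM, from 17.2 through 138.1 to 701 CPM, and late cells 75.6 CPM, from 0 through 64.02 to 197.6 CPM. SQLE was thus 2.704-fold higher in hypoblast-like and 3.74-fold higher in early trophectoderm-like than in epiblast-like cells, and 54 of 60 late cells lay below the early median.

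GGPS1, whose product serves protein prenylation and not sterol synthesis, was highest in epiblast-like cells at 44.2 CPM and lowest in early cells at 25.7 CPM, with 38.2 CPM in hypoblast-like and 37.9 CPM in late cells. A read of GGPS1 was found in 50 of 50 epiblast-like but 43 of 51 early cells, or in 48 of 48 and 38 of 45 after thinning. LSS, which closes squalene epoxide into lanosterol, stayed between 2.703 and 3.38 CPM in the 4 classes and below the filter.

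Of the 8 enzymes from lanosterol to cholesterol, 3 were hardly measured. CYP51A1, which removes a methyl group from lanosterol, had 4 reads in all kept cells, split over 2 identifiers, and 0 reads in the epiblast-like class, which allows up to 0.0139 CPM. NSDHL, another enzyme of demethylation, also had 2 identifiers and stood at 0.367 to 0.624 CPM. TM7SF2, a sterol reductase, had 1.49 to 3.14 CPM, with reads in 71 of the kept cells. How reads were split between the copies of CYP51A1 and NSDHL was not tested, so their levels are uncertain.

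MSMO1, the methylsterol oxidase, spanned a wide range among early trophectoderm-like cells. Its level there was 677 CPM, with the lowest cell at 15.5, the median at 557 and the highest at 3816 CPM. In epiblast-like cells it had 244 CPM, from 0 through 219.1 to 1060.05 CPM, and in hypoblast-like cells 390.1 CPM, from 38.9 through 301 to 1346 CPM. Late cells had 235.9 CPM, from 0 through 147.4 to 1369.997 CPM. The early level was 2.76-fold above the epiblast-like, but only 35 of 51 early cells exceeded the epiblast-like median, while 56 of 60 late cells lay below the early median at a 2.86-fold lower level.

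EBP, SC5D and DHCR7 carry out isomerization, desaturation and the final reduction of the sterol ring. EBP had 98.1, 168.5, 196.1 and 130.8 CPM in epiblast-like, hypoblast-like, early and late cells. SC5D had 56.9, 115.6, 137.7 and 82.1 CPM in the 4 classes in the same order. DHCR7 had 57.9 CPM in epiblast-like cells, from 1.83 through 55.4 to 219.2 CPM, and 122.3 CPM in hypoblast-like cells, from 0.432 through 104.8 to 456 CPM. Early cells had 126.04 CPM, from 3.82 through 116.6 to 649 CPM, and late cells 44.4 CPM, from 0 through 38.9 to 172.2 CPM. DHCR7 was the member most often low in late cells, where 58 of 60 were below the early median and the level was 2.80-fold lower. Its late level was also below the epiblast-like level. HSD17B7, a ketosteroid reductase of the same stretch, had 14.2, 7.29, 14.1 and 12.8 CPM and was the only enzyme of the 15 that passed the filter to be lowest in hypoblast-like cells.

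**Figure D3:**
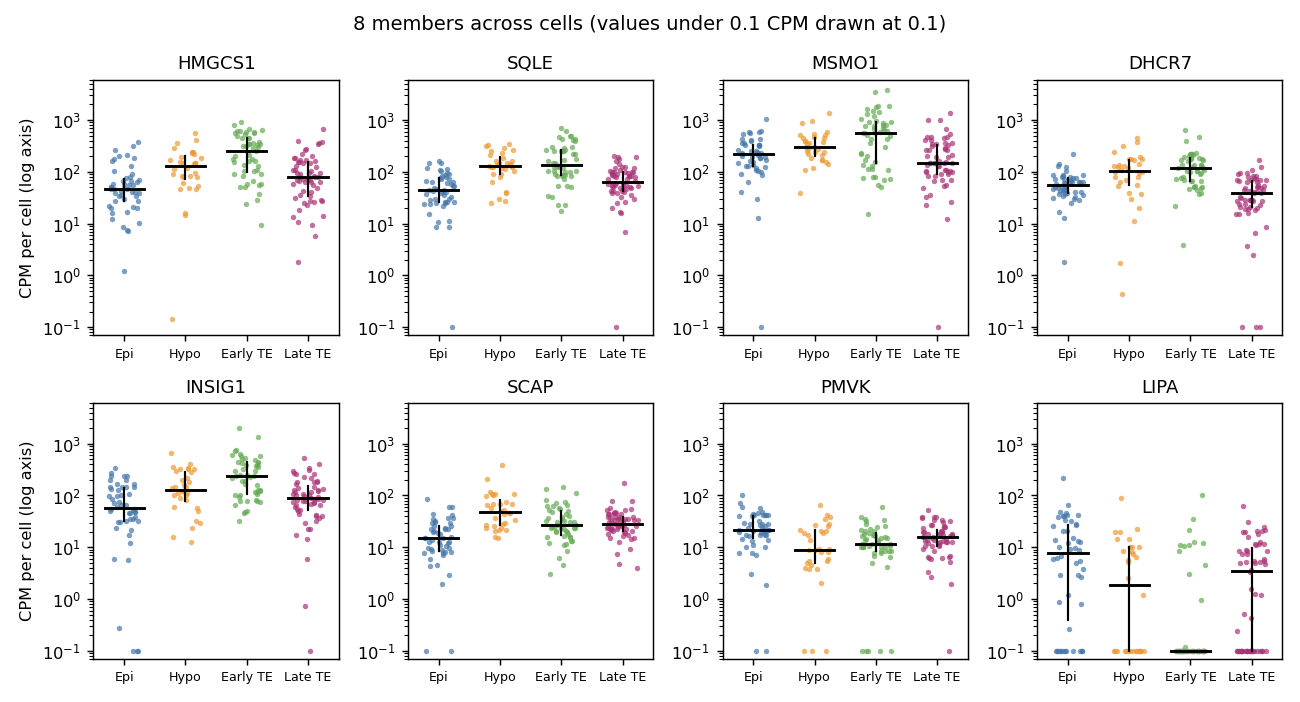
Level of 8 members in each cell (CPM, log axis, with values under 0.1 CPM drawn at 0.1), by class, with the median as a horizontal bar and the quartiles as a vertical line. HMGCS1, SQLE, MSMO1, DHCR7 and INSIG1 have their highest medians in early trophectoderm-like cells, SCAP in hypoblast-like cells, and PMVK and LIPA in epiblast-like cells.

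Among the regulators, INSIG1 followed the enzymes. INSIG1, an endoplasmic reticulum protein that is itself a target of SREBP, had 86.8 CPM in epiblast-like cells, from 0 through 57.4 to 338 CPM in single cells. It had 170.8 CPM in hypoblast-like cells, from 12.9 through 129.2 to 671 CPM. Early cells had 293 CPM, from 32.8 through 235 to 1971 CPM, and late cells 121.7 CPM, from 0 through 87.8 to 540.4 CPM. Early cells were 3.35-fold above epiblast-like cells, with 47 of 51 above their median, and late cells were 2.40-fold below early cells. INSIG2, its paralog, had 9.53, 4.98, 9.82 and 8.71 CPM and was below 2-fold in each comparison.

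SREBF2 encodes the SREBP that mainly serves cholesterol genes, and SREBF1 the one that mainly serves fatty acid genes. SREBF2 had 63.1, 94.6, 121.9 and 90.6 CPM in epiblast-like, hypoblast-like, early and late cells. SREBF1 had 26.2, 26.3 and 26.2 CPM in the first 3 classes and 15.8 CPM in late cells. SCAP was the only regulator at least 2-fold higher in hypoblast-like than in epiblast-like cells. It had 61.7 CPM in hypoblast-like cells, from 14.8 through 48.1 to 387 CPM in single cells, against 20.1 CPM in epiblast-like cells, from 0 through 14.9 to 84.99 CPM. Early cells had 32.995 CPM, from 3.06 through 26.5 to 147.8 CPM, and late cells 32.8 CPM, from 4.03 through 28.5 to 170.5 CPM. The hypoblast-like level was 2.97-fold above the epiblast-like, and 31 of 32 cells exceeded the epiblast-like median. Over early cells it was 1.84-fold higher, and 14 of 51 early cells exceeded the hypoblast-like median.

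The uptake and transport members showed no common order of classes. LIPA, the lysosomal lipase that frees cholesterol from lipoprotein esters, had 20.3 CPM in epiblast-like cells, with the lowest, median and highest cell at 0, 7.71 and 216.6 CPM. It had 8.94 CPM in hypoblast-like cells, with a median of 1.89 and a highest cell at 91.1 CPM. Early cells had 3.67 CPM, with a median of 0 and a highest cell at 102.99 CPM, and late cells 6.53 CPM, with a median of 3.48 and a highest cell at 62.9 CPM. LIPA was read in 38 of 50 epiblast-like (76%, 61.8% to 86.9%), 17 of 32 hypoblast-like, 13 of 51 early (25.5%, 14.3% to 39.6%) and 37 of 60 late cells. After thinning these were 35 of 48, 13 of 25, 12 of 45 and 30 of 55. Early cells were 4.57-fold below epiblast-like cells, the largest fold of any member in that direction. The 2.15-fold lower level in hypoblast-like cells did not hold without the cells that had 6 or more markers of a second class at 10 CPM, where the log2 fold was 0.0092.

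STARD4, a soluble sterol carrier, had 33.3 CPM in epiblast-like cells, with the lowest, median and highest cell at 0, 21.9 and 165.4 CPM, and 34.5 CPM in early cells, at 0, 25.4 and 155.5 CPM. It had 15.2 CPM in hypoblast-like cells, at 0, 9.21 and 79.2 CPM, and 18.7 CPM in late cells, at 0, 16.96 and 77.7 CPM. In 26 of 32 hypoblast-like cells it lay below the epiblast-like median. NPC1 and NPC2 pass cholesterol out of the lysosome. NPC1 had 13.6, 8.65, 17.1 and 12.1 CPM and NPC2 113.002, 123.1, 170 and 118.2 CPM in epiblast-like, hypoblast-like, early and late cells, below 2-fold in each comparison.

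The enzymes also varied together from cell to cell within a class. Spearman correlations of log2(CPM + 1) were computed across the cells of each class and averaged over the 4 classes. They describe cells that share 1 experiment and differ in depth, and carry no p-value. The median over all pairs of the 15 enzymes was 0.28. For the 14 members at 50 CPM or more it was 0.36, beside 0.02 for 3830 genes of that level. The closest pairs were ACAT2 with FDFT1, at 0.73, and SQLE with MSMO1, at 0.71, the latter reaching 0.86 in early trophectoderm-like cells.

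Each member was then set against the summed level of the enzymes, leaving the member itself out. FDFT1 had the highest mean correlation at 0.77, followed by MSMO1 at 0.75, INSIG1 at 0.74, SQLE at 0.72 and HMGCS1 and IDI1 at 0.67. In early trophectoderm-like cells INSIG1 reached 0.87, the strongest of any member in any class. SREBF2 was at 0.25, above the enzyme HSD17B7 at 0.19, and had correlations of 0.38 with SQLE and 0.34 with EBP. SREBF1 and SCAP were both at 0.08. Among themselves, SREBF1 and SREBF2 had a correlation of 0.56, SREBF2 and SCAP of 0.43 and SREBF1 and SCAP of 0.43. STARD4 was at 0.37, NPC2 at 0.18, NPC1 at 0.05 and LIPA at 0.04. GGPS1 and PMVK were the members with negative values, at -0.12 and -0.24, and PMVK was negative in each of the 4 classes.

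**Figure D4:**
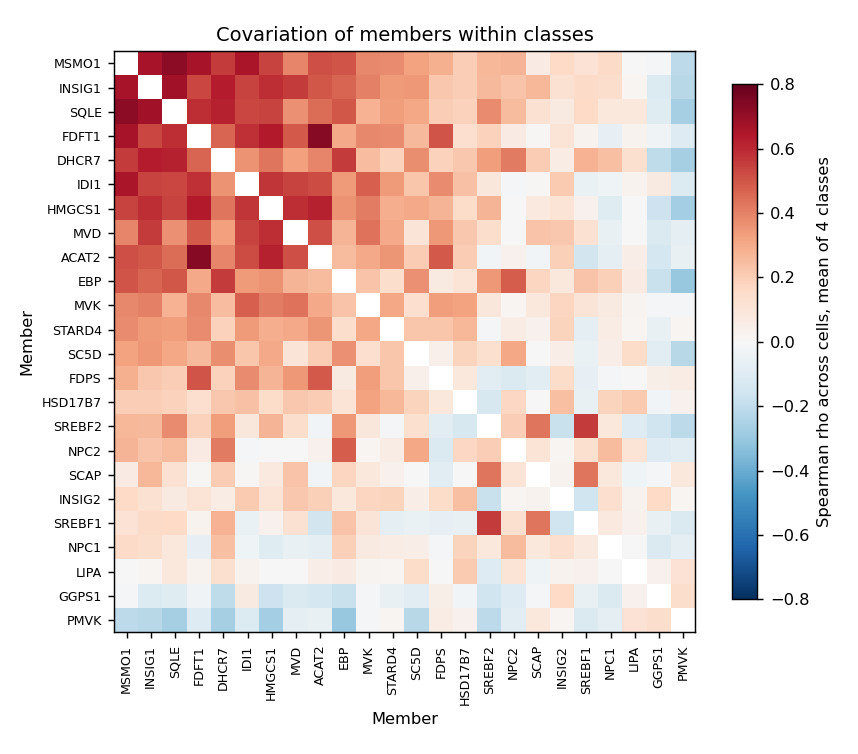
Spearman correlation between members across cells, as the mean over the 4 classes, with members ordered by their mean correlation and the diagonal left blank. A block of 9 genes from MSMO1 to ACAT2 holds the highest values, SREBF1, SREBF2 and SCAP form a smaller group, and the PMVK row is mostly negative.

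Outside the list, the 3526 named genes at 50 CPM or above, each with a read in no fewer than 90% of cells per class, were ranked in the same way against the summed enzymes, and their median correlation was 0.01. Among the 10 highest were ERG28 at 0.58 and TMEM97 at 0.54. ERG28 is a scaffold of sterol enzymes and TMEM97 is a sterol-responsive membrane protein. They were followed by SCD, a fatty acid desaturase, at 0.48, CYB5B and PRXL2A at 0.44, ACSL3, which activates fatty acids, and PCYT2, of phospholipid synthesis, at 0.41, and TUBB4A at 0.40. ERG28 had 74.9, 92.4, 210.7 and 109.8 CPM in epiblast-like, hypoblast-like, early and late cells, and was thus highest in early trophectoderm-like cells, like most members.

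Of 40 other genes of sterol metabolism, 27 passed the filter. Where the count of only 1 direction is given below, that of the other direction is not reported here. In hypoblast-like over epiblast-like cells 1 of them, ABCA1, was at least 2-fold lower, against 9.03% of all genes. In early trophectoderm-like over epiblast-like cells 5 were (18.5%), close to the 16.3% of all genes. In hypoblast-like over early cells 4 were at least 2-fold higher and 4 lower (14.8% each), against 11.3% and 7.73% of all genes. In late over early cells 5 were higher (18.5%), against 5.38%. Among them was the lipoprotein receptor LRP1, which fell from 2.45-fold to 1.51-fold without the late cell with most of its reads. The oxysterol receptor NR1H3, also among the 5, passed the filter on low genes only through its late level. LRP2 and SOAT1 were at least 2-fold lower in late than in early cells. SOAT1, which stores cholesterol as esters, had 184.3, 230.6, 351 and 121.9 CPM in epiblast-like, hypoblast-like, early and late cells.

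Some uptake and efflux genes among these differed widely between epiblast-like and trophectoderm-like cells. LRP2, a large endocytic receptor, had 247 CPM in early cells, with single cells from 0.305 through 201.1 to 1010 CPM, against 15.6 CPM in epiblast-like cells, from 0 through 5.03 to 160 CPM. Hypoblast-like cells had 23.6 CPM and late cells 95.6 CPM. A single cell held 39.5% of the epiblast-like reads of LRP2, and the level was 9.85 CPM without it. ABCA1, the pump that exports cholesterol, ran the other way, with 140.99 CPM in epiblast-like cells, from 6.57 through 119.3 to 687.5 CPM, and 9.35 CPM in early cells, where the median was 0 and the highest cell had 257.5 CPM. Without the early cell with most ABCA1 reads, the early level was 5.72 CPM. It had 38.8 CPM in hypoblast-like and 14.8 CPM in late cells. MYLIP, a ubiquitin ligase that removes lipoprotein receptors, had 30.9, 16.9, 6.12 and 10.4 CPM in the 4 classes, and GRAMD1A, which carries sterol from the plasma membrane, 40.2, 32.7, 8.29 and 11.9 CPM.

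CYP11A1 and HSD3B1, a pair of enzymes of progesterone synthesis, had higher levels in late than in early trophectoderm-like cells. CYP11A1, which cuts the cholesterol side chain, had 164.5 CPM in late cells, from 0 through 151.4 to 476 CPM, and 36.3 CPM in early cells, from 0 through 26.3 to 254.6 CPM. HSD3B1, which completes progesterone, had 250.3 CPM in late cells, from 0 through 124.6 to 1543 CPM, and 22.3 CPM in early cells, where the median was 0 and the highest cell had 839 CPM. Late over early cells differed 4.44-fold for CYP11A1 and 10.8-fold for HSD3B1. That highest early cell held 41.2% of the early reads of HSD3B1, and without it the early level was 13.3 CPM and the fold 17.6. Epiblast-like and hypoblast-like cells had at most 7.24 CPM of either gene. Reads that HSD3B1 shares with near-identical copies were not resolved here. NR1H3, an oxysterol receptor, had 18.7 CPM in late cells and 3.70 to 5.14 CPM in the other classes.

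Across the 51 early and 60 late trophectoderm-like cells together the Spearman correlation with CCR7 was -0.57 for the summed enzymes and 0.72 for HSD3B1 and CYP11A1 together. The cells share 1 experiment, and the correlation of CCR7 with total reads was 0.18. Among the 60 late cells, where CCR7 spans a wide range, the correlations were -0.51 and 0.61. Among the 51 early cells, most of them without a CCR7 read, they were -0.03 and 0.14. In steps of CCR7, the median of the summed enzymes was 2966 CPM in 49 cells below 5 CPM, 3335 in 7 cells from 5 to 20 CPM, 1904 in 15 cells from 20 to 100 CPM and 1122 in 40 cells at 100 CPM or more. The medians of HSD3B1 and CYP11A1 together were 34.4, 45.2, 117.8 and 399 CPM in the same steps. The step from 5 to 20 CPM holds few cells, and its median lay within the quartiles of the step below.

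**Figure D5:**
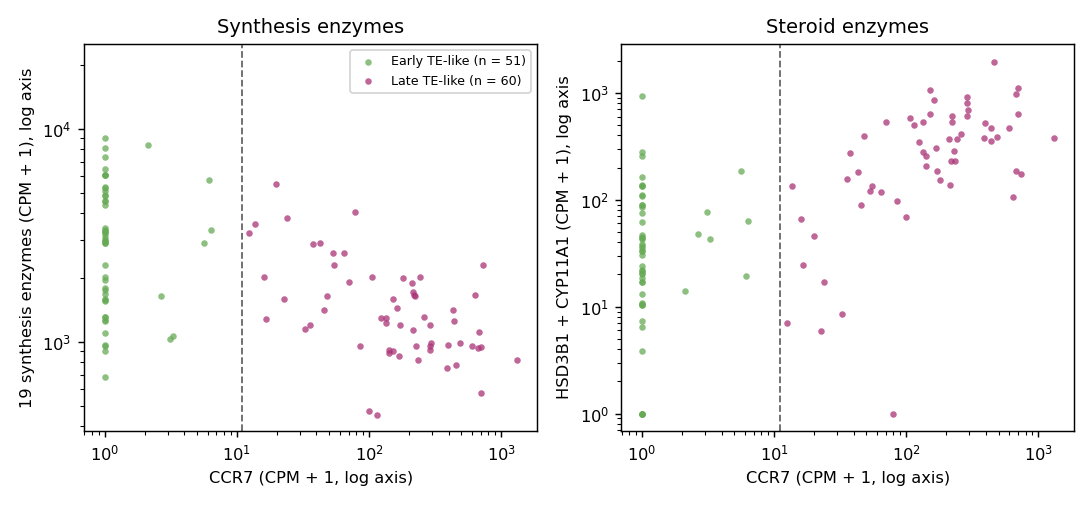
Summed level of the 19 synthesis enzymes (left) and of HSD3B1 and CYP11A1 (right) against CCR7 in 51 early and 60 late trophectoderm-like cells, as CPM + 1 on log axes, with 1 point per cell and the dashed line at the CCR7 threshold of 10 CPM. The enzymes are widely spread where CCR7 is at 0 and lie around 1122 CPM (median) in cells with CCR7 at 100 CPM or more, where HSD3B1 and CYP11A1 together have a median of 399 CPM.

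The trophectoderm-like cells also fell into 2 clusters, of which 1 held 50 early and 22 late cells and the other 1 early and 38 late cells. Divided by cluster in place of CCR7, the late sum of the enzymes was 0.415 times the early. Without the 7 cells near the CCR7 threshold it was 0.452 times. Syncytiotrophoblast genes moved with the late class, where the summed level of 4 measured markers was 855 CPM and ran from 0 through a median of 18.2 to 14337 CPM in single cells, and 8 of 60 late cells had 3 or more markers at 10 CPM. In early cells that sum was 5.61 CPM, from 0 to 116.1 CPM in single cells, and their part in the lower enzyme levels of late cells was not tested. Amnion markers summed to 107.3 CPM in late and 118.6 CPM in early cells. The same sum was 319.8 CPM in epiblast-like and 349.8 CPM in hypoblast-like cells. In trophectoderm-like cells HAND1 and VTCN1 held most of the sum. They had 66.3 and 39.4 CPM in early and 60.1 and 31.3 CPM in late cells. GABRP and IGFBP3 were at most 0.273 CPM in early and late cells. Markers of a second class also moved with the inner classes: without the cells that had 6 or more of them at 10 CPM, the summed enzymes were 1.40 times as high in hypoblast-like and 2.53 times as high in early trophectoderm-like as in epiblast-like cells, with 32 epiblast-like and 13 hypoblast-like cells left. The hypoblast-like sum was then 0.556 times the early trophectoderm-like sum, against 0.709 with all cells.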

How the data were processed

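The authors deposited raw read counts per gene for 217 cells. According to the study's methods, reads were trimmed with FastP, aligned by STAR to the chimpanzee genome with Ensembl annotation and counted per gene. The submitters' processing notes instead list Trim Galore 0.6.6, STAR 2.7.7a and the human build GRCh38, while the identifiers are chimpanzee. Symbols were attached to 18783 identifiers, and the reads of identifiers with the same symbol were summed.

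Cells needed 4000 reads and 8000 detected genes, which kept 193 of 217, of which 111 were trophectoderm-like. The paper states the same thresholds but reports fewer cells kept, so the sets of cells are not identical. Scanpy 1.11.5 normalized and log-transformed the counts, took 50 principal components and 30 neighbours over 15804 genes with a read in at least 20 cells, and leidenalg 0.10.2 clustered them (resolution 1, seed 0) into 4 clusters, named from the mean standardized level of marker lists. No doublet caller was run. Class levels are CPM of summed reads with exact 95% Poisson intervals, and shares have exact Clopper-Pearson intervals. A gene at 0 is given the limit of 3 counts. Folds use a pseudocount of 1 CPM. With 1 sample no test was made. Other tools were scipy 1.17.1, numpy 2.4.6, umap-learn 0.5.12, pandas 2.3.3, matplotlib 3.10.9 and anndata 0.12.19 under Python 3.11.15, and the calculation was tested on simulated data.

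The members, the lists and the alternatives were chosen with earlier results of these data known. Named are all members, up to 10 other sterol genes that differed at least 2-fold, by size of the fold, and the 10 genes most like the summed enzymes. Gene lengths were not used, so levels are compared between classes and not between genes. Sequences were not used here, and some results on other sterol genes are not reported here.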

Additional observations from a re-analysis of the deposited data

Results flagged for a closer look

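The 24 cells left out by the filter on detected genes entered no comparison, yet carried reads of the pathway. Their summed level of the 19 synthesis enzymes was 2021 CPM (95% Poisson interval 2007 to 2034, counting error only). Single cells ran from 0 through a median of 1016 to 6883 CPM. Their median number of detected genes was 6893.5, and they were given no class. There are no control samples, and the level was flagged because it lies above the limit that a count of 0 allows.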

How the results depend on the processing

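The median log2 fold of the members kept its sign in each of the 4 comparisons under all 78 alternative values, and moved by less than the spread between members. The counts of members past the fold moved by more than 1.5 times in 43 alternative values, which follow. For hypoblast-like over epiblast-like cells, 5 members higher became 3 with thinned cells, without the cell with most reads of each gene, or without cells with 6 markers of a second class, and 11 at 1.5-fold or 0 at 3-fold. The 2 lower became 0 with median-of-ratios size factors or at 3-fold, 6 at 1.5-fold, and 1 with 7000 detected genes, thinned cells, a filter of 20 CPM or without cells with 6 markers of a second class. For early trophectoderm-like over epiblast-like cells, 8 higher became 13 with those size factors or without cells with 3 or with 6 markers of a second class, 14 at 1.5-fold and 3 at 3-fold, and 1 lower became 3 at 1.5-fold and 0 with a filter of 20 CPM. For hypoblast-like over early cells, 1 higher became 0 with the mean or median over cells, a CCR7 threshold of 20 CPM, thinned cells, without the cell with most reads of each gene, at 3-fold or with a filter of 20 CPM, and 2 at 1.5-fold or without cells with 6 markers. The 1 lower became 2 with the mean or median over cells, 7000 or 9000 detected genes, a CCR7 threshold of 20 CPM or thinned cells, 3 without the cell with most reads of each gene, 4 without the deepest cell of each class, 6 without cells with 6 markers, 7 at 1.5-fold, and 0 at 3-fold or by cluster. For late over early cells, 0 higher became 1 at 1.5-fold, and 7 lower became 14 at 1.5-fold and 0 at 3-fold. Apart from the changed fold and gene filters, the cause was not tested.

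Of 391 alternative folds of single members past 2-fold, 369 stayed past it, 21 fell short, and LIPA in hypoblast-like over epiblast-like cells changed sign, to 0.00916 without cells with 6 markers of a second class. The ratio of the summed enzymes lay between 2.11 and 3.59 for early trophectoderm-like over epiblast-like, 1.40 and 1.84 for hypoblast-like over epiblast-like, 0.556 and 0.775 for hypoblast-like over early, and 0.415 and 0.516 for late over early cells. Late over epiblast-like cells ran from 0.874 by cluster to 1.62 without cells with 3 markers of a second class, so its direction was not fixed. That last setting left 4 epiblast-like and 0 hypoblast-like cells and gave no hypoblast-like value. For the 27 other sterol genes, leaving out the cell with most reads of each gene in each class changed 3 calls: LRP2 became at least 2-fold higher in hypoblast-like and STARD3 2-fold lower in early trophectoderm-like over epiblast-like cells, and LRP1 fell short in late over early cells. That setting for these genes, the cells near the CCR7 threshold, the deepest cells, the cluster division and the setting of 6 markers were added after seeing the data. No paired analysis was possible because the cells form 1 sample with no replicate numbers.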
